A study of Mus musculus with 48 samples.

Results

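CD antigens are cell surface proteins numbered by the antibodies that recognise them, most of them first described on leukocytes, and C-type lectins and Siglecs are surface receptors that bind carbohydrates or related ligands. The genes described here are the named genes whose symbol begins with Cd and a digit, with Clec and a digit, or with Siglec, except Cd14 and Cd44. They number 53 of the 7859 genes that could be named in these data, with 40 Cd genes, 10 Clec genes and 3 Siglec genes. The array carries 118 genes of that description, and the other 65 were not analysed here.

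Whole kidneys of 48 female mice of the BALB/c strain were profiled, 1 Affymetrix array for each mouse, with 6 mice in each of 8 groups. The antibiotic vancomycin was given daily for 7 days by intravenous (iv) injection at 50, 200 or 400 mg/kg or by intraperitoneal (ip) injection at 50, 200 or 400 mg/kg, and for each route 1 group received saline. All mice were killed on day 8. No genotype other than the strain and no age is given in the sources used here, and no batch is named.

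Values are GCRMA intensities, given below as log2. The median of the whole table was 3.47, and a group mean under 3.47 was not told from background, so that any change measured from such a level is approximate in size. In the table the order of values is shifted against that of the identifiers. Names were therefore given only in 3 stretches of the table where values follow the order of identifiers at a constant shift, which hold 22.6% of its 45101 probe sets. Every named result holds as far as that reconstruction does. In a check on same-gene probe sets, the shift used gave the highest mean correlation of 301 shifts tried in 22 of 23 windows of the stretches, with means from 0.175 to 0.535. The margin over the next-best shift was small in some windows: 0.175 against 0.14 for Clec2h and 0.306 against 0.222 for Clec7a and Clec4d. It was 0.374 against 0.326 for Clec5a and 0.316 against 0.254 for Cd48. In others it was wide, as for Clec4n and Cd72, with 0.515 against 0.134. The tissue label was borne out by tubule genes, since Umod averaged 12.99 log2 intensity at iv 400 mg/kg against 13.26 in iv saline, and Slc34a1 averaged 11.23 against 13.23. The arrays of mouse 1 (iv saline) and mouse 9 (iv 50 mg/kg) stood apart, with 7.89% and 7.2% of all within-group variation, and leaving them out left the number of calls the same in each comparison that holds them, although Cd84 no longer passed between routes (adjusted p = 0.052) and another gene passed in its place.

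Lectin receptors of the dectin family sit on macrophages, monocytes, neutrophils and dendritic cells, where they bind sugars of fungi and bacteria or ligands of dying cells. Some activating members, such as those encoded by Clec4n and Clec5a, pair with the adaptor chains Fcer1g or Tyrobp. They pass the signal to the kinase Syk and onward through Card9, Bcl10 and Malt1, and inhibitory members recruit phosphatases instead. A healthy kidney holds resident macrophages and dendritic cells between its tubules, and after tubular injury such cells increase, while many Cd genes, such as those for complement inhibitors, adhesion proteins and a vitamin receptor, belong to tubule, vessel or podocyte rather than to leukocytes.

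Of the 10 lectin genes 9 lie on mouse chromosome 6, and Clec4b1, Clec4a2, Clec4n and Clec4d lie close together there, with 1 other protein-coding gene between Clec4a2 and Clec4n. The sequences around the starts of 5 lectin genes that rose at 400 mg/kg and of Clec2h, which fell by the most, are shown because their group means shifted in the same or the opposite direction at that dose. Each runs from 250 bases before to 50 bases after the gene's start, from RefSeq on GRCm38.p6, 5′ to 3′ on the gene's own strand. Capitals mark GAGGAA or its reverse complement TTCCTC, the core of the site bound by PU.1, a transcription factor of myeloid cells. The stretches are chr6:129472730-129473029 (minus strand) for Clec7a, chr6:123122440-123122739 (plus) for Clec4a2, chr6:123261857-123262156 (plus) for Clec4d, chr6:40585756-40586055 (minus) for Clec5a, chr6:123049712-123050011 (plus) for Clec4b1 and chr6:128662135-128662434 (plus) for Clec2h.
Clec7a: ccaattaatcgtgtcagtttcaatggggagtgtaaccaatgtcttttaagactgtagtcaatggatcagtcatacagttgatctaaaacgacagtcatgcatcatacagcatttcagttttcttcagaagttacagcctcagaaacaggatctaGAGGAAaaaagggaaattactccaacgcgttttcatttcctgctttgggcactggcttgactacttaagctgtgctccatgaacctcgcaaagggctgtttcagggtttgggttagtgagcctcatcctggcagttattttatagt
Clec4a2: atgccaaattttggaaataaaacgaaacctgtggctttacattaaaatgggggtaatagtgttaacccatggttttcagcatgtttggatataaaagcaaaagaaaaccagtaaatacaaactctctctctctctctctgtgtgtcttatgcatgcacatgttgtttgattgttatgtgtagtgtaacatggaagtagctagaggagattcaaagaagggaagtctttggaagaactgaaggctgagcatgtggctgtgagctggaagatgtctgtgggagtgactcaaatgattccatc
Clec4d: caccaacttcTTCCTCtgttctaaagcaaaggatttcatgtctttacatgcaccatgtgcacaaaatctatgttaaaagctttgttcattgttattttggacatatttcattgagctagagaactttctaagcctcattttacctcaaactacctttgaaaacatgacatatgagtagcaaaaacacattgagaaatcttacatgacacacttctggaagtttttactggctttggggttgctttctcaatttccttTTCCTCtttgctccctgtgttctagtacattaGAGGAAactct
Clec5a: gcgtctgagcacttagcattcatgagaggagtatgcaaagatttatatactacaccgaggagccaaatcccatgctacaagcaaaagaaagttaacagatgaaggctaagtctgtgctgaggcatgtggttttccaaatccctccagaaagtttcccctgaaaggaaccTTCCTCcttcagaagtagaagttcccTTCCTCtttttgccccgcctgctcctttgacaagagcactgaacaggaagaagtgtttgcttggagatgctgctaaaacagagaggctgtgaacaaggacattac
Clec4b1: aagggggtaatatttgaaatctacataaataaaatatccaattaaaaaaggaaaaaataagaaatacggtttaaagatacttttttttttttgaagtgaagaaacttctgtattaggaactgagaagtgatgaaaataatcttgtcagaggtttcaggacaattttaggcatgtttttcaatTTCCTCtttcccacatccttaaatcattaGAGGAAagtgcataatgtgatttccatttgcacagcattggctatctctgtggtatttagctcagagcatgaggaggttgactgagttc
Clec2h: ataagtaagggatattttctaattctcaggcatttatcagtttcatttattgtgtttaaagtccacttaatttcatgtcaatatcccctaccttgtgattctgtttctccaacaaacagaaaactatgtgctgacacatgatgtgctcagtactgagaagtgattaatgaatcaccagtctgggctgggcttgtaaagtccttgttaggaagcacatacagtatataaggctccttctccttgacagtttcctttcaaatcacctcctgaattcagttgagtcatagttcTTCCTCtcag

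GAGGAA was found on either strand in the promoters of Clec7a, Clec4d, Clec5a, Clec4b1, Cd72 and Cd84, which are 6 of the 10 rising genes that have a promoter entry. It was also found in 6 of the 9 tested genes with a promoter entry that did not rise by both routes, namely Cd2bp2, Cd320, Cd59a, Cd8a, Clec11a and Clec2h. It was found in 31.3% of the 27025 genes of the promoter table. Clec4d held 3 matches and Clec4b1 and Clec5a held 2 each, and in Clec4a2 the letters were not found. Some matches lay past the start of the gene, which follows base 250 of the 300: those at bases 258 and 290 in Clec4d, and the single matches of Cd84 (base 262) and Clec2h (base 291). The AP-1 motif TGANTCA was found in Cd84 and Clec4a2 among the rising genes, and in 9.0% of all genes, and 2 matches of it lay in Clec2h. The motif of HNF1, a factor of kidney tubule and liver, was found in 0 of the 10 and in 0.5% of all genes. No match of 1 motif overlapped a match of another. These matches describe the letters in these windows and are no evidence of binding.

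Most of these genes were not measurable in whole kidney. Of the 53, 22 passed the filter on low values (above 3.47 in at least 6 arrays), which is 41.5%, against 73.1% of all named genes. They were 14 Cd genes and 8 Clec genes, and 0 of the 3 Siglec genes passed. Of the 31 that did not pass, 19 were above 3.47 in no array, and no array of any of the 31 exceeded 4.64. The genes that did not pass include most lymphocyte antigens: the T cell receptor chains Cd3d, Cd3e and Cd247, the adhesion protein Cd2, the co-receptors Cd5, Cd28 and Cd8b1, and the B cell receptor chains Cd79a and Cd79b. They also include Cd209a, Cd209b, Cd209c, Cd209d and Cd207, lectins of dendritic cells and macrophages, the NK receptor Cd244a, Clec1b, Clec2i, and the sialic acid lectins Siglec1, Siglece and Siglecf. The remaining genes that did not pass were Cd109, Cd177, Cd180, Cd1d2, Cd200r1, Cd200r4, Cd276, Cd300ld, Cd37, Cd40lg and Cd46.

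**Figure D1:**
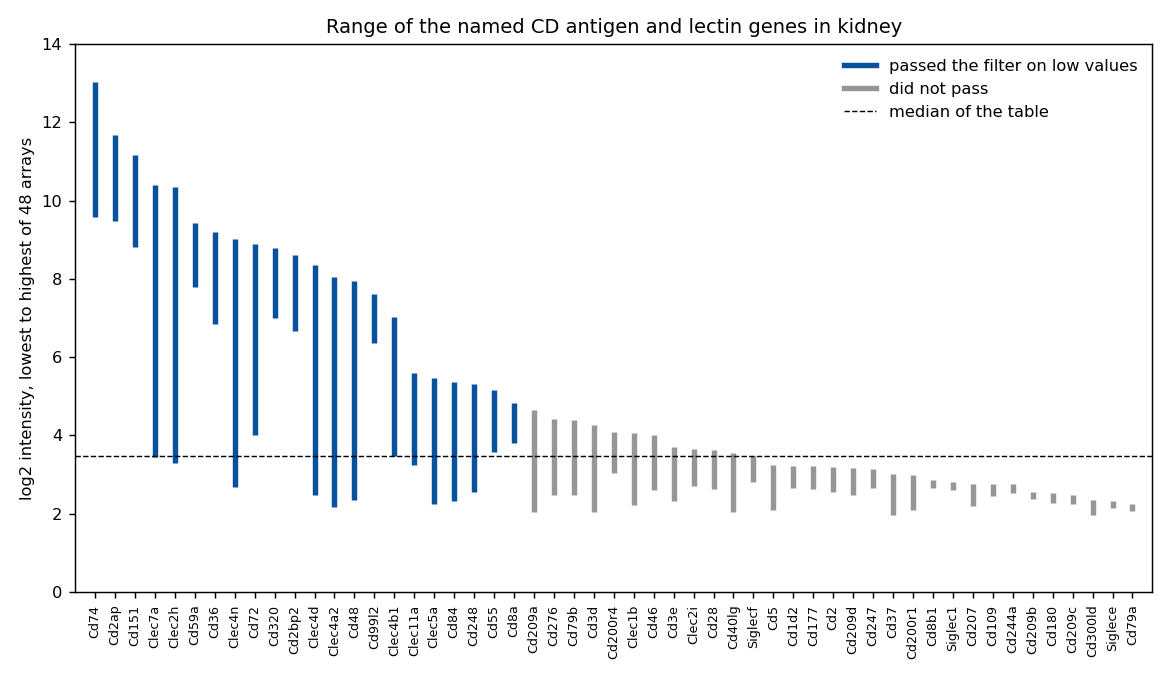
Lowest to highest log2 intensity over the 48 arrays for each of the 53 genes, in order of the highest value; blue genes passed the filter on low values and grey genes did not, and the dashed line is the table's median of 3.47. The grey genes reach 4.64 at most, and several blue lectin genes span from background to 8 or more.

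At 400 mg/kg of either route the measurable leukocyte genes other than Cd8a were higher and Clec2h was much lower. Against iv saline, limma's moderated test over 5748 genes called 13 of the 22 higher and 2 lower at iv 400 mg/kg, where 30.7% of all genes tested were called higher and 19% lower. Against ip saline it called 13 higher and 4 lower at ip 400 mg/kg, where 36.3% of all genes were called higher and 25.1% lower. The 13 that rose were the same genes by both routes: Clec7a, Clec4n, Clec4a2, Clec4d, Clec5a, Clec4b1, Cd48, Cd74, Cd84, Cd72, Cd248, Cd151 and Cd2ap. The median log2 change of the 22 was 0.9 at iv 400 mg/kg, against 0.09 over all genes tested, and 0.87 at ip 400 mg/kg, against 0.11. The groups did not overlap for 12 genes that rose and 1 that fell by iv, where 15.1% and 6.87% of all genes did so, and for 11 that rose and 3 that fell by ip, where 24.1% and 17.2% did. Clec4n, Clec4a2, Clec4d, Clec5a and Cd84 passed the filter only through the 400 mg/kg arrays. They were thus selected for being high there over both routes together, and counts over the 22 are a description. In whole tissue, more cells of a type and more RNA per cell cannot be told apart.

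**Figure D2:**
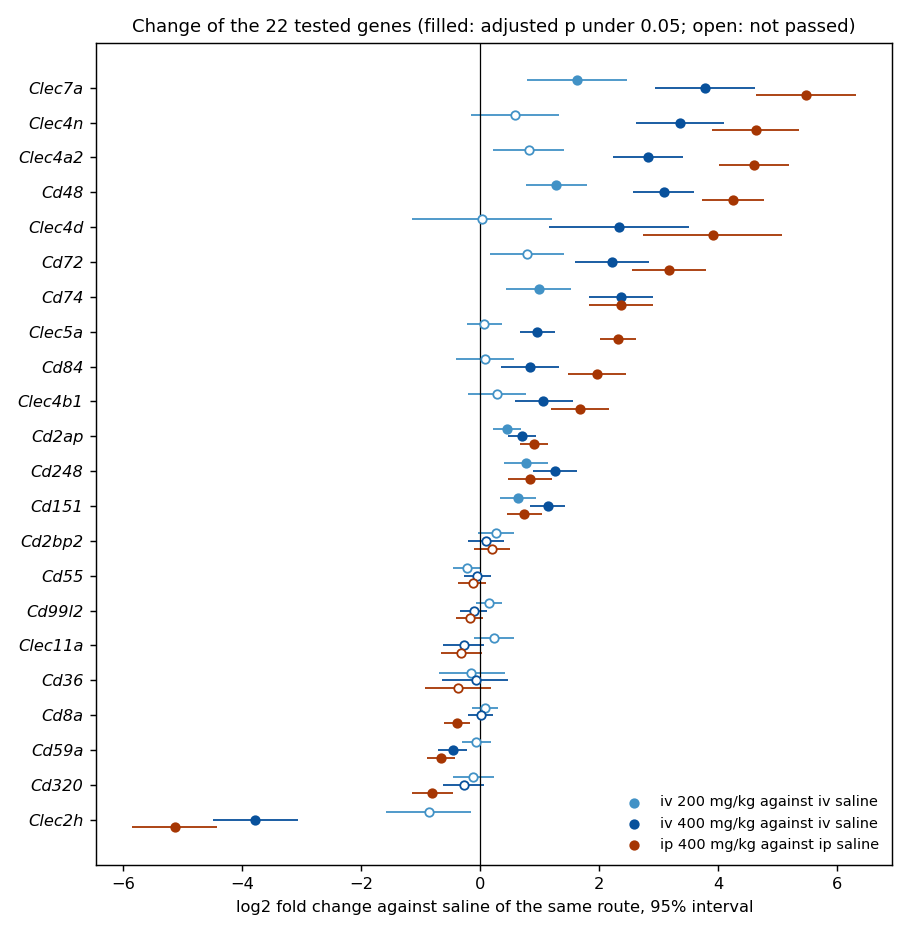
Log2 fold change with its 95% interval for the 22 tested genes at iv 200, iv 400 and ip 400 mg/kg, each against saline of the same route, from limma; filled points passed an adjusted p of 0.05 and open points did not. The lectin and leukocyte genes lie to the right at both 400 mg/kg doses, with Clec7a at 3.78 and 5.48, and Clec2h lies far to the left at -3.78 and -5.14.

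Of 7 C-type lectins of myeloid cells named here 6 were tested, and these passed as higher at 400 mg/kg by both routes, with median log2 changes of 2.57 by iv and 4.26 by ip. Since 4 of the 6 (Clec4n, Clec4a2, Clec4d and Clec5a) passed the filter only through the 400 mg/kg arrays, this count and these medians are a description only. The 7th, Clec1b, a platelet and myeloid receptor, did not pass the filter. Clec7a, which encodes dectin-1, the receptor for fungal beta-glucan, had a saline mean above background, as did Clec4b1, while the other 4 did not. Its lowest, median and highest log2 intensities were 6.34, 8.08 and 8.93 at iv 400 mg/kg, against 3.65, 3.97 and 4.81 in iv saline. At ip 400 mg/kg they were 8.91, 9.82 and 10.41, against 4.05, 4.14 and 5.03 in ip saline. Every mouse at 400 mg/kg lay above every saline mouse of its route. The log2 fold change was 3.78 ± 0.42 (SE, 13.7-fold, adjusted p = 3.3e-10) by iv and 5.48 ± 0.42 (44.5-fold, adjusted p = 3.4e-15) by ip, and 5.48 was the largest rise among the 22 genes.

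Clec4n encodes dectin-2, a mannan receptor that signals through Fcer1g. Its values were 4.48, 6.83 and 7.88 log2 intensity (lowest, median and highest) at iv 400 mg/kg, against 2.95, 3.03 and 3.24 in iv saline, and 5.83, 7.53 and 9.03 at ip 400 mg/kg, against 2.75, 2.85 and 2.88 in ip saline. All 12 mice at 400 mg/kg were above 3.47 and all 12 saline mice were below it. The log2 changes were 3.36 ± 0.37 (SE, adjusted p = 2.2e-10) and 4.63 ± 0.37 (adjusted p = 9.4e-15).

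Clec4a2 encodes DCIR, an inhibitory lectin whose tail recruits phosphatases. It had 4.11, 6.10 and 6.66 log2 intensity (lowest, median and highest) at iv 400 mg/kg, against 2.64, 2.84 and 2.98 in iv saline. At ip 400 mg/kg it had 6.75, 7.29 and 8.04, against 2.76, 2.78 and 2.85. The groups did not overlap by either route. The lowest ip mouse at 400 mg/kg was above the highest iv mouse at that dose, but ip and iv arrays also differed as sets. The changes were 2.82 ± 0.29 (SE, adjusted p = 7e-11) by iv and 4.6 ± 0.29 (adjusted p = 2.2e-17) by ip on the log2 scale. A second probe set of Clec4a2, with a mean of 2.88, was above 3.47 in 1 array and did not follow the one used (correlation -0.0).

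Clec4d, the receptor MCL of macrophages and neutrophils, was the most variable of these genes. In the 6 mice at iv 400 mg/kg it ran from 2.92 to 6.94 log2 intensity with a median of 4.96, against 2.50 to 2.59 in iv saline. At ip 400 mg/kg mice 103 to 108 had 4.16, 8.34, 7.54, 8.34, 2.54 and 8.07, against 2.55 to 2.62 in ip saline. Mouse 107 was thus at background, under the lowest ip saline mouse, while the other 5 were far above it. The log2 changes were 2.33 ± 0.58 (SE, adjusted p = 0.00087) by iv and 3.91 ± 0.58 (adjusted p = 1.4e-07) by ip. This SE rests on 1 spread shared by all 8 groups. The standard deviation was 0.035 in iv saline and 1.65 at iv 400 mg/kg, and 0.026 in ip saline and 2.51 at ip 400 mg/kg. The SE thus understates the spread at 400 mg/kg, and the adjusted p-values are approximate.

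Clec5a, which encodes the Tyrobp-coupled receptor MDL-1, stayed low. Its lowest, median and highest log2 intensities were 2.50, 3.46 and 3.77 at iv 400 mg/kg, against 2.28, 2.32 and 2.43 in iv saline, and 4.13, 4.59 and 5.47 at ip 400 mg/kg, against 2.28, 2.36 and 2.40 in ip saline. By iv, 3 of the 6 mice were above 3.47, and by ip all 6 were. The log2 change was 0.96 ± 0.15 (SE, adjusted p = 3.7e-07) by iv and 2.32 ± 0.15 (adjusted p = 1.5e-17) by ip. Clec4b1, a receptor of the dectin-2 family, had 4.25, 4.84 and 5.63 at iv 400 mg/kg, against 3.49, 3.94 and 4.23 in iv saline, and 4.00, 5.79 and 7.04 at ip 400 mg/kg, against 3.91, 3.93 and 3.98 in ip saline. Both groups stood just clear of their saline mice at the low end. The changes were 1.06 ± 0.24 (SE, adjusted p = 0.00029) and 1.67 ± 0.24 (adjusted p = 7.9e-08) on the log2 scale.

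**Figure D3:**
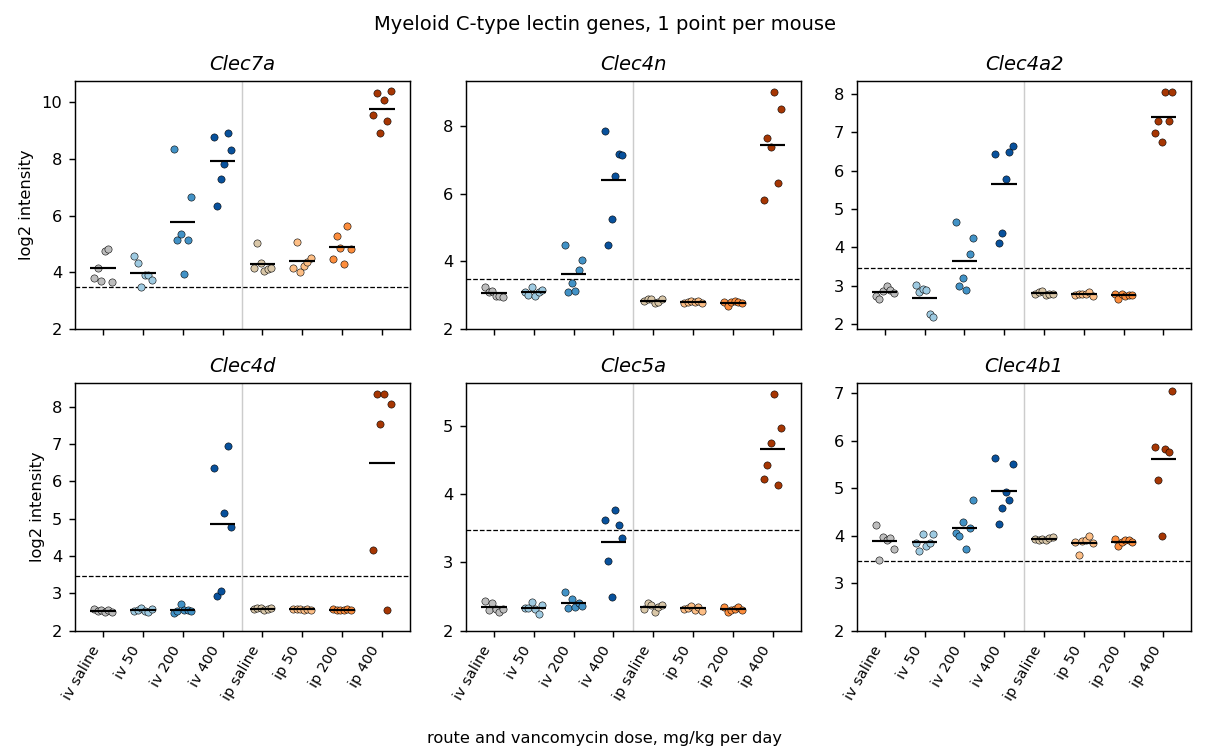
Log2 intensity of the 6 myeloid C-type lectin genes in every mouse, by route and dose from saline to 400 mg/kg; bars are group means, and the dashed line is the table's median of 3.47. The ip 200 mg/kg mice lie with saline in Clec4n, Clec4a2, Clec4d and Clec5a, some iv 200 mg/kg mice lie above it in Clec7a, Clec4n and Clec4a2, and mouse 107 is the single low point of Clec4d at ip 400 mg/kg.

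The 9 tested macrophage markers passed as higher at 400 mg/kg by both routes, with median log2 changes of 3.02 by iv and 4.29 by ip. Of these 9, Itgam and Ms4a7 passed the filter only through the 400 mg/kg arrays, as did Csf3r below. They were thus selected for being high at 400 mg/kg over both routes together. The count and medians of the 9 markers and the values of Csf3r are therefore a description. The summed intensity of the 9 macrophage markers ran from 3080 to 11200 at iv 400 mg/kg, against 556 to 674 in iv saline, and from 10100 to 23600 at ip 400 mg/kg, against 593 to 1170 in ip saline. Markers of other leukocytes were low: Zap70, Il2rb, Ncr1, Elane, Ngp, Xcr1, Ccr7, Cr2 and Fcer2a were above 3.47 in 0 of the 48 arrays, and Gzma in 3. Gzma did not pass the filter, and it averaged 3.56 log2 intensity at ip 400 mg/kg against 2.65 in ip saline. By iv it averaged 2.83 at 400 mg/kg against 2.87 in saline. The 1 tested neutrophil marker, Csf3r, changed by 0.42 ± 0.23 (SE, adjusted p = 0.13) at iv 400 mg/kg and by 1.27 ± 0.23 (adjusted p = 5.8e-06) at ip 400 mg/kg on the log2 scale. Of 6 B and plasma cell markers named here, Ighm and Xbp1 rose at 400 mg/kg by both routes, and the other 4 did not pass the filter. Ighm, the heavy chain of IgM, averaged 6.26 log2 intensity at iv 400 mg/kg against 4.94 in iv saline, and 7.34 at ip 400 mg/kg against 4.83 in ip saline. Epb42, a red blood cell gene, rose by 1.4 ± 0.2 (SE, adjusted p = 1.2e-07) at iv 400 mg/kg and by 2.27 ± 0.2 (adjusted p = 3.2e-13) at ip 400 mg/kg. The part of these cells in the rises was not tested.

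Antigens shared by many leukocytes rose as well. Of 9 pan-leukocyte and myeloid antigens named here, Cd48, Cd74 and Cd84 were tested and all 3 rose at 400 mg/kg by both routes, with a median log2 change of 2.36 by each. This is a description, since Cd84 was selected by the filter for being high at 400 mg/kg. Cd48, a GPI-anchored protein of most leukocytes that binds the NK receptor Cd244a, had 5.91, 6.49 and 6.80 log2 intensity (lowest, median and highest) at iv 400 mg/kg, against 3.19, 3.26 and 3.56 in iv saline. At ip 400 mg/kg it had 6.35, 7.14 and 7.94, against 2.75, 2.95 and 3.17 in ip saline. The groups were separated by more than 2 log2 units by both routes, with 3.09 ± 0.26 (SE, adjusted p = 1.7e-13) by iv and 4.25 ± 0.26 (adjusted p = 5.5e-18) by ip, the lowest adjusted p of the 22 genes in each comparison.

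Cd74 encodes the invariant chain that guides MHC class II molecules to endosomes. It had 10.76, 12.40 and 12.64 log2 intensity (lowest, median and highest) at iv 400 mg/kg, against 9.63, 9.72 and 9.89 in iv saline, and 11.29, 12.44 and 13.02 at ip 400 mg/kg, against 9.65, 9.80 and 10.71 in ip saline. The groups did not overlap by either route. The log2 change was 2.36 ± 0.27 (SE) by both routes, 5.14-fold by iv (adjusted p = 8.1e-10) and 5.15-fold by ip (adjusted p = 3e-10). In every saline mouse Cd74 was far above the table's median, so these sizes, unlike those of most of the lectins, were not limited by background.

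Cd84, a SLAM family receptor that binds itself, was near the floor. It had 2.35, 3.35 and 4.01 log2 intensity (lowest, median and highest) at iv 400 mg/kg, against 2.33, 2.39 and 2.48 in iv saline, and 3.07, 4.75 and 5.36 at ip 400 mg/kg, against 2.34, 2.39 and 2.47 in ip saline. By iv, 2 of the 6 mice were above 3.47 and the groups overlapped, and by ip 4 of the 6 were and the groups did not overlap. The log2 changes were 0.83 ± 0.24 (SE, adjusted p = 0.0039) and 1.96 ± 0.24 (adjusted p = 1.8e-09).

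Among 5 B cell antigens named here only Cd72 was measurable. Cd72 encodes an inhibitory receptor best known from B cells, with a C-type lectin-like domain. It had 5.90, 6.81 and 7.83 log2 intensity (lowest, median and highest) at iv 400 mg/kg, against 4.21, 4.73 and 5.30 in iv saline, and 6.50, 7.63 and 8.90 at ip 400 mg/kg, against 4.24, 4.49 and 5.01 in ip saline. The groups did not overlap, with log2 changes of 2.21 ± 0.31 (SE, 4.61-fold, adjusted p = 6.6e-08) and 3.17 ± 0.31 (8.98-fold, adjusted p = 3.5e-12). The B cell receptor chain Cd79a and the B cell markers Ms4a1, Pax5 and Blk were above 3.47 in 0 of the 48 arrays. The other receptor chain, Cd79b, was above 3.47 in 4 arrays, 3 of them at 400 mg/kg, and did not pass the filter. It averaged 3.24 log2 intensity at iv 400 mg/kg against 2.91 in iv saline, and 3.48 at ip 400 mg/kg against 2.56 in ip saline.

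**Figure D4:**
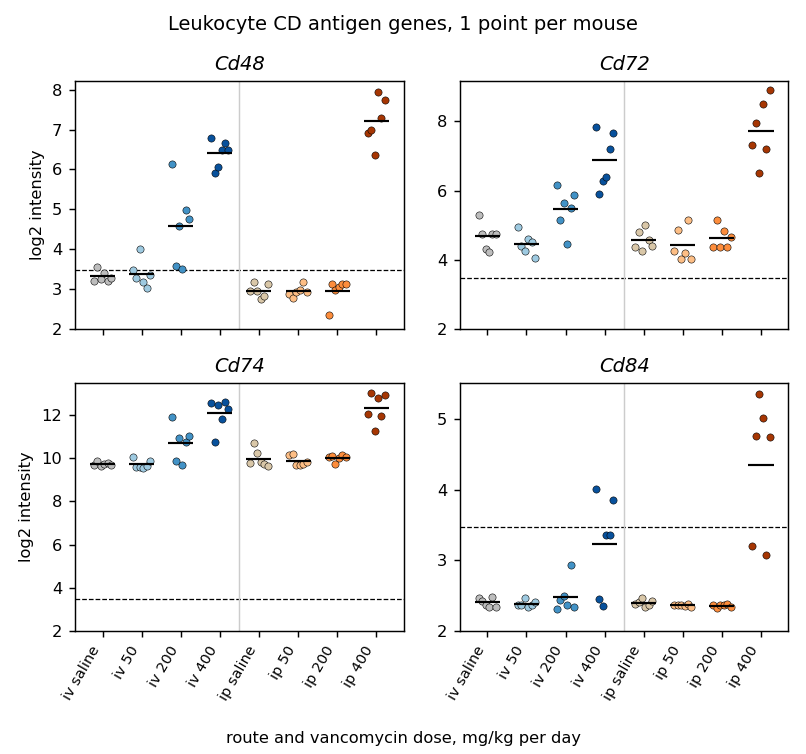
Log2 intensity of Cd48, Cd72, Cd74 and Cd84 in every mouse, by route and dose from saline to 400 mg/kg; bars are group means, and the dashed line is the table's median of 3.47. All 4 genes are highest at 400 mg/kg, and at iv 200 mg/kg the mice spread between the saline and the 400 mg/kg levels in Cd48, Cd72 and Cd74.

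Of 8 T and NK cell antigens named here only Cd8a was measurable, a chain of the co-receptor of cytotoxic T cells. Its values were 3.97, 4.19 and 4.50 log2 intensity (lowest, median and highest) at iv 400 mg/kg, against 4.16, 4.20 and 4.41 in iv saline, and 3.81, 4.15 and 4.38 at ip 400 mg/kg, against 4.21, 4.54 and 4.82 in ip saline. The iv groups overlapped fully and the ip groups in part, with 0.01 ± 0.11 (SE, adjusted p = 0.95) by iv and -0.39 ± 0.11 (adjusted p = 0.0014) by ip on the log2 scale. Its partner chain Cd8b1 was above 3.47 in no array. Cd3d, which did not pass the filter, was above 3.47 in 2 arrays, both at 400 mg/kg. It averaged 2.93 log2 intensity at ip 400 mg/kg against 2.15 in ip saline, and 2.25 at iv 400 mg/kg against 2.21 in iv saline.

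Of 6 co-stimulatory and inhibitory surface proteins named here, the 2 that were tested are Cd48 and Cd84, which rose as given above, and the co-stimulatory receptor Cd28, the T cell ligand Cd40lg, the inhibitory receptor Cd200r1 and the B7 family protein Cd276 did not pass the filter.

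Of 19 signalling partners named here 12 were tested, 7 rose at iv 400 mg/kg and 9 at ip 400 mg/kg, and none was called lower, with median log2 changes of 0.85 and 1.4. Syk and Lcp2 passed the filter only through the 400 mg/kg arrays and so were selected for being high there, and these counts and medians are a description. The largest rise was that of the adaptor chain Fcer1g, by 3.16 ± 0.27 (SE, adjusted p = 2.4e-13) at iv 400 mg/kg and by 4.17 ± 0.27 (adjusted p = 2.3e-17) at ip 400 mg/kg on the log2 scale. The pan-leukocyte phosphatase Ptprc (CD45) changed by 2.83 and 3.65, the adaptor Lcp2 by 1.26 and 2.67, the inositol phosphatase Inpp5d by 1.37 and 2.13, and the kinase Syk by 0.91 and 2.14. Bcl10, which links Card9 to NF-kB, rose by 1.04 and 1.15, and the exchange factor Vav1 by 0.79 and 1.65. Src (0.72 ± 0.21 SE, adjusted p = 0.0025) and Plcg1 (0.38 ± 0.13, adjusted p = 0.011) passed by ip alone. Fyn, Grb2 and Plcg2 did not pass by either route. The ip minus iv difference in log2 change passed the test for Lcp2 (1.42 ± 0.31 SE, adjusted p = 0.0042) and Syk (1.24 ± 0.27, adjusted p = 0.0046) and for none of the other 10 partners tested, and both were the partners with no array above 3.47 outside 400 mg/kg.

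Clec2h was the 1 lectin gene called lower than saline at 400 mg/kg, and it fell by both routes. It encodes Clr-f, a surface lectin that serves as a ligand for receptors of the NKR-P1 family on NK cells. Its lowest, median and highest log2 intensities were 3.28, 3.88 and 6.32 at iv 400 mg/kg, against 7.43, 8.05 and 8.16 in iv saline, and 3.46, 3.98 and 5.81 at ip 400 mg/kg, against 9.26, 9.36 and 10.33 in ip saline. Every mouse at 400 mg/kg was below every saline mouse, and most of them were close to the table's median of 3.47, so that the sizes are approximate. The log2 change was -3.78 ± 0.35 (SE, adjusted p = 4.4e-12) by iv and -5.14 ± 0.35 (adjusted p = 2e-16) by ip, the largest fall among the 22 genes in each comparison. The other gene of that family named here, Clec2i, did not pass the filter. Tubule markers fell in the same mice: 8 of 9 tested were lower at 400 mg/kg by each route, with median log2 changes of -1.39 by iv and -2.41 by ip. Their summed intensity ran from 13400 to 35300 at iv 400 mg/kg, against 39600 to 53300 in iv saline, and from 22500 to 37800 at ip 400 mg/kg, against 62800 to 70100 in ip saline. Their part in the fall of Clec2h was not tested.

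Of the complement regulators, Cd59a fell, and Cd55 did not pass with the deposited values. Cd59a encodes a GPI-anchored inhibitor of the membrane attack complex. It had 7.80, 8.01 and 8.30 log2 intensity (lowest, median and highest) at iv 400 mg/kg, against 8.11, 8.58 and 8.65 in iv saline, and 8.13, 8.38 and 8.47 at ip 400 mg/kg, against 8.72, 9.03 and 9.12 in ip saline. The ip groups did not overlap, and the iv groups overlapped through 1 saline mouse. The changes were -0.46 ± 0.12 (SE, adjusted p = 0.0013) and -0.66 ± 0.12 (adjusted p = 6.9e-06) on the log2 scale. Cd55, which speeds the decay of C3 convertases, changed by -0.05 ± 0.12 (adjusted p = 0.75) and -0.13 ± 0.12 (adjusted p = 0.33), with a mean of 3.89 at iv 400 mg/kg against 3.94 in iv saline. With quantile normalization Cd55 passed as lower at ip 400 mg/kg (-0.37, adjusted p = 0.0067). The third regulator, Cd46, did not pass the filter.

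Cd320, the receptor that takes up vitamin B12 bound to transcobalamin, had 7.40, 8.04 and 8.49 log2 intensity (lowest, median and highest) at iv 400 mg/kg, against 8.01, 8.20 and 8.56 in iv saline, and 7.01, 7.60 and 7.92 at ip 400 mg/kg, against 8.04, 8.26 and 8.79 in ip saline. The iv groups overlapped and the ip groups did not. It fell by ip (-0.81 ± 0.17 SE, adjusted p = 7.3e-05) and gave -0.28 ± 0.17 (adjusted p = 0.17) by iv. The difference between these effects, -0.52 ± 0.24 (adjusted p = 0.21), did not pass the test.

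Of the 5 tested endothelial, stromal and epithelial surface proteins, 2 rose at 400 mg/kg by both routes. Cd151, a tetraspanin that binds laminin-binding integrins, had 9.89, 10.23 and 11.16 log2 intensity (lowest, median and highest) at iv 400 mg/kg, against 8.97, 9.19 and 9.35 in iv saline, and 9.63, 9.78 and 9.84 at ip 400 mg/kg, against 8.92, 9.02 and 9.08 in ip saline. It was the only tetraspanin tested, since Cd37 did not pass the filter. The groups did not overlap, with changes of 1.14 ± 0.15 (SE, adjusted p = 1.5e-08) and 0.74 ± 0.15 (adjusted p = 2.9e-05) on the log2 scale. A second probe set of Cd151, with a mean of 3.0, was above 3.47 in 1 array and did not follow the one used (correlation -0.39). Cd248, known as endosialin of pericytes and fibroblasts, had 4.57, 4.91 and 5.31 at iv 400 mg/kg, against 3.58, 3.65 and 3.80 in iv saline, and 2.65, 3.73 and 4.17 at ip 400 mg/kg, against 2.56, 2.74 and 3.13 in ip saline. By ip only 3 of the 6 mice were above 3.47 and the groups overlapped, and the changes were 1.25 ± 0.18 (adjusted p = 2.3e-07) by iv and 0.84 ± 0.18 (adjusted p = 0.00013) by ip. Of the 13 rising genes, Cd151 and Cd248 had the smaller log2 change by ip, Cd74 had equal changes and the other 10 had the larger change by ip. The ip minus iv differences of -0.39 ± 0.21 (adjusted p = 0.29) for Cd151 and -0.41 ± 0.26 (adjusted p = 0.39) for Cd248 did not pass the test.

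Cd36, a fatty acid and scavenger receptor, and Cd99l2, an adhesion protein of vessel walls, did not pass by either route, with -0.08 ± 0.27 (SE, adjusted p = 0.82) and -0.37 ± 0.27 (adjusted p = 0.24) for Cd36 and -0.11 ± 0.11 (adjusted p = 0.45) and -0.18 ± 0.11 (adjusted p = 0.16) for Cd99l2. Cd99l2 passed as lower at ip 400 mg/kg with quantile normalization (-0.33, adjusted p = 0.0032) and without mouse 103 (-0.26, adjusted p = 0.047). A second probe set of Cd99l2, with a mean of 5.44 and above 3.47 in all 48 arrays, followed the one used only weakly (correlation 0.33). Of 5 tested endothelial markers 0 were called higher at 400 mg/kg by either route, and Ehd3 by both routes and Tek by iv were called lower. The secreted growth factor Clec11a gave -0.28 ± 0.17 (adjusted p = 0.16) and -0.32 ± 0.17 (adjusted p = 0.092), and did not pass with the deposited values. It passed as lower at ip 400 mg/kg when each array was centred on its median (-0.42, adjusted p = 0.031), and with quantile normalization by iv (-0.42, adjusted p = 0.029) and by ip (-0.43, adjusted p = 0.021).

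A pair of genes carries the prefix only through a binding partner. Cd2ap, an adaptor needed for the slit diaphragm of podocytes, had 10.30, 10.75 and 11.02 log2 intensity (lowest, median and highest) at iv 400 mg/kg, against 9.79, 10.05 and 10.28 in iv saline, and 11.26, 11.32 and 11.67 at ip 400 mg/kg, against 10.33, 10.48 and 10.63 in ip saline. The groups did not overlap and the changes were 0.7 ± 0.12 (SE, adjusted p = 2.8e-06) and 0.9 ± 0.12 (adjusted p = 6.5e-09) on the log2 scale. The other probe sets of Cd2ap, with means of 6.91 and 7.16, followed it over the 48 arrays with correlations of 0.76 and 0.72, which include the differences between routes and doses. Cd2bp2, a spliceosome protein, gave 0.1 ± 0.15 (adjusted p = 0.61) and 0.2 ± 0.15 (adjusted p = 0.26), and it passed as higher when its probe sets were averaged, with 0.36 (adjusted p = 0.0025) by iv and 0.54 (adjusted p = 9.1e-06) by ip.

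**Figure D5:**
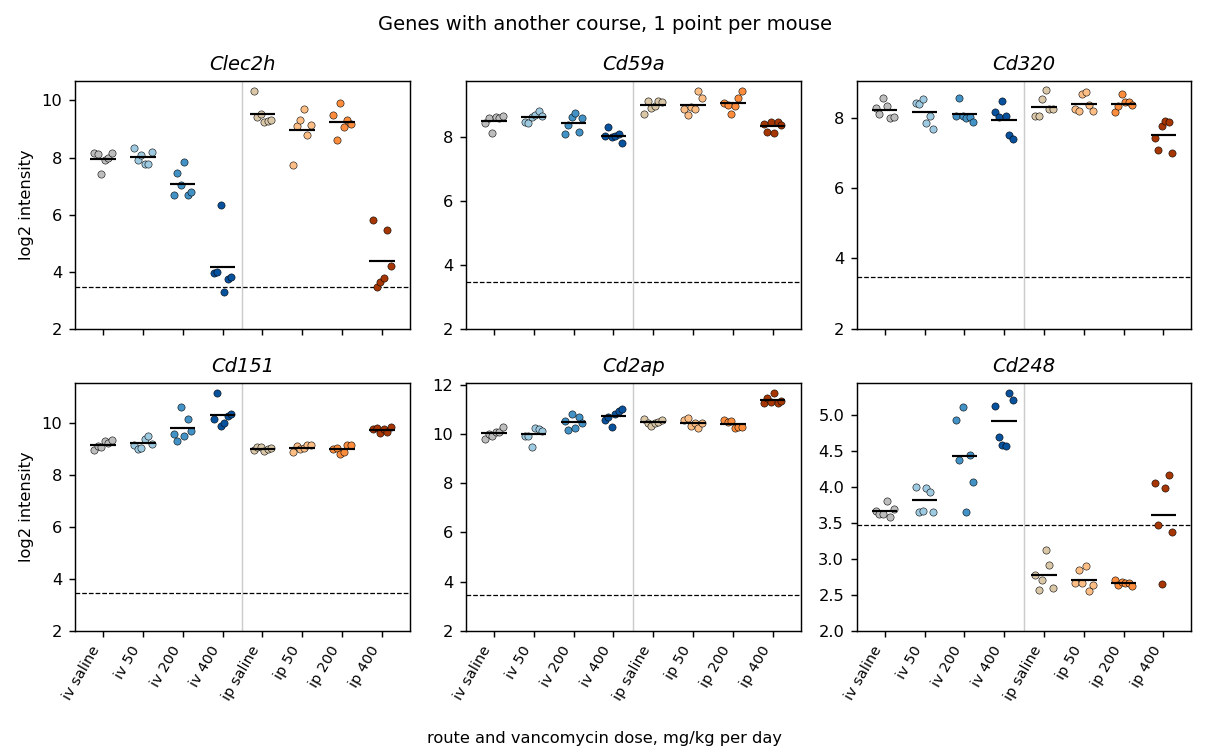
Log2 intensity of Clec2h, Cd59a, Cd320, Cd151, Cd2ap and Cd248 in every mouse, by route and dose from saline to 400 mg/kg; bars are group means, and the dashed line is the table's median of 3.47. Clec2h drops close to the median at 400 mg/kg except in mouse 45 (6.32) by iv and mice 103 (5.81) and 107 (5.46) by ip, and the other genes shift by far less.

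At iv 200 mg/kg 6 of the 22 genes rose against iv saline and 0 fell, where 6.07% and 1.29% of all genes tested were called. They were Clec7a (1.62 ± 0.42 SE on the log2 scale, adjusted p = 0.0093), Cd48 (1.28 ± 0.26, adjusted p = 0.00076), Cd74 (0.98 ± 0.27, adjusted p = 0.017), Cd248 (0.76 ± 0.18, adjusted p = 0.0055), Cd151 (0.63 ± 0.15, adjusted p = 0.0043) and Cd2ap (0.44 ± 0.12, adjusted p = 0.012). At that dose the groups overlapped for all 22 genes, where 1.24% of all genes were higher and 0.748% lower without overlap. The median change of the 22 was 0.24, against 0.06 over all genes tested. Clec7a had 3.95, 5.24 and 8.36 log2 intensity (lowest, median and highest) at iv 200 mg/kg, against 3.65, 3.97 and 4.81 in iv saline, so that 2 mice reached the range of the iv 400 mg/kg mice and 1 mouse stayed within the saline range. Clec4a2 (0.82 ± 0.29, adjusted p = 0.083), Cd72 (0.78 ± 0.31, adjusted p = 0.12) and Clec2h (-0.87 ± 0.35, adjusted p = 0.13) did not pass. Of the macrophage markers 6 of 9 rose at that dose, as did Fcer1g and Ptprc among the signalling partners. When only the mice at iv 200 mg/kg and in iv saline were fitted, none of the 6 passed (adjusted p from 0.082 to 0.15). Without mouse 25, Clec7a gave 1.11 (adjusted p = 0.064) and Cd74 0.73 (adjusted p = 0.099), and without mouse 27 Cd2ap gave 0.38 (adjusted p = 0.05).

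At iv 50, ip 50 and ip 200 mg/kg limma called 0 of the 22 genes, and 0 of them had an unadjusted p under 0.05. In these comparisons 0.539%, 0.087% and 0.087% of all genes tested were called in either direction. The log2 changes of the 22 ran from -0.37 to 0.20 at iv 50 mg/kg, from -0.56 to 0.16 at ip 50 mg/kg and from -0.26 to 0.59 at ip 200 mg/kg. The highest of these, 0.59 for Clec7a at ip 200 mg/kg, came from 4.29, 4.83 and 5.64 log2 intensity (lowest, median and highest), against 4.05, 4.14 and 5.03 in ip saline.

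Set against 200 mg/kg of the same route, 12 of the 22 genes were higher and 3 lower at iv 400 mg/kg, where 17.8% and 13.4% of all genes were called, and 13 were higher and 5 lower at ip 400 mg/kg, where 35.2% and 25.3% were called. By iv the largest step was that of Clec4n, 2.77 ± 0.37 (SE, adjusted p = 1.6e-07), and by ip that of Clec7a, 4.89 ± 0.42 (adjusted p = 1e-13). Clec4n, Clec4a2, Clec4d, Clec5a and Cd84 passed the filter only through the 400 mg/kg arrays. The counts of higher genes and the step of Clec4n are therefore a description. Clec2h fell by both routes, with -2.91 ± 0.35 (adjusted p = 4.3e-08) by iv and -4.87 ± 0.35 (adjusted p = 9.8e-16) by ip. Clec11a was also called lower, with -0.51 ± 0.17 (adjusted p = 0.017) by iv and -0.39 ± 0.17 (adjusted p = 0.04) by ip, and this call was lost without mouse 46 or 48 by iv and without any of mice 86, 87, 89, 104 and 105 by ip (adjusted p up to 0.063 and 0.14). The 200 and 400 mg/kg comparisons against saline share their saline mice, and those between doses share the mice at 200 or 400 mg/kg.

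The effect of 400 mg/kg differed between routes for 3 of the 22 genes, each with the larger rise by ip, where 2.94% of all genes tested were called in that direction and 1.37% in the other. The ip minus iv difference in log2 change was 1.79 ± 0.42 (SE, adjusted p = 0.0074) for Clec4a2, 1.35 ± 0.21 (adjusted p = 3.3e-05) for Clec5a and 1.13 ± 0.34 (adjusted p = 0.046) for Cd84. The call of Cd84 was lost in 19 of 24 fits that left out 1 mouse (adjusted p up to 0.11) and when each array was centred on its median (adjusted p = 0.059), and fitted on the 4 groups alone neither Cd84 (adjusted p = 0.22) nor Clec4a2 (adjusted p = 0.06) passed. All 3 are among the 5 genes that passed the filter only through the 400 mg/kg arrays and were at background in both saline groups, so the differences rest on the levels at 400 mg/kg and the count is a description. Clec7a gave 1.7 ± 0.59 (adjusted p = 0.09), Cd48 1.16 ± 0.36 (adjusted p = 0.053) and Clec2h -1.35 ± 0.5 (adjusted p = 0.12), which did not pass. With quantile normalization only Clec5a passed, Clec4a2 giving 1.29 (adjusted p = 0.071) and Cd84 0.83 (adjusted p = 0.12), and leaving out single mice moved the count between 2 and 5, with 5 without mouse 103 or mouse 107 of the ip 400 mg/kg group. For 200 mg/kg 0 of the 22 passed, where 0.974% of all genes did. Of the 22, 6 had an unadjusted p under 0.05, all with the larger value by iv. The share of all genes under that level was not counted, so these 6 are a description. The lowest adjusted p of these was 0.068 for Cd48 (-1.28 ± 0.36).

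The ip and iv arrays differed as sets, with 90th percentiles of 9.07 to 9.23 and 8.28 to 8.75 log2 intensity. Route and array set therefore cannot be told apart, in levels or in differences of effect between routes. Between ip saline and iv saline 7 of the 22 genes were called higher and 2 lower, where 55.1% and 2.57% of all genes were called and the median over all genes was 0.41. Clec2h was higher by 1.56 ± 0.35 (SE, adjusted p = 0.00025), Cd2bp2 by 0.64 ± 0.15 (adjusted p = 0.00037), Cd55 by 0.61 ± 0.12 (adjusted p = 2.2e-05), Cd99l2 by 0.51 ± 0.11 (adjusted p = 0.00018) and Cd59a by 0.49 ± 0.12 (adjusted p = 0.00066), while Cd248 was lower (-0.89 ± 0.18, adjusted p = 8.7e-05), as was Clec11a (-0.74 ± 0.17, adjusted p = 0.00023). With quantile normalization the median over all genes was -0.04. Then 1 of the 22 genes was called higher, where 1353 of all 5744 genes tested were called in either direction. The signs of Cd2ap, Cd59a, Cd8a and Cd99l2 turned (-0.01, -0.03, -0.07 and -0.02). Of all calls 95.5% were higher with the deposited values and 46% with quantile normalization.

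Within groups some mice were high or low in many of these genes. Over the 13 genes that rose by both routes, mouse 25 was the highest of its group in 7 genes at iv 200 mg/kg and mouse 28 the lowest in 7. At iv 400 mg/kg mouse 43 was highest in 5 and mouse 47 in 4, and mouse 44 was lowest in 8. At ip 400 mg/kg mice 106 and 108 were highest in 5 each, and mouse 105 was lowest in 8 and mouse 107 in 4. The mean log2 intensity of the 6 rising lectins was lowest in mice 107 (5.90) and 103 (6.11) at ip 400 mg/kg, and these mice kept the highest Clec2h of the group, with 5.46 and 5.81. Clec4d, far lower in the same mice than in the rest of the group, enters that mean and weighs on this order. Mouse 105 had the lowest mean rank over the 13 genes (2.08 of 6), with Clec2h at 3.64. At iv 400 mg/kg mouse 44 had the lowest lectin mean (4.19) with Clec2h at 3.99, and mouse 45, with a lectin mean of 4.51, had the highest Clec2h (6.32). These orders are a description of 6 mice a group.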

How the data were processed

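Per the labels, biotin-labelled kidney RNA of each mouse was put on an Affymetrix array of its own. The authors deposited intensity values on a linear scale for 45101 probe sets, and GCRMA is named in the submitters' processing notes, without a version or a list of arrays normalized as 1 set. The deposited values ran from 1.78 to 63594, and log2 was taken without an offset.

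Values stand shifted against the identifiers, so names rest on position. Positions 751 to 3250 were named with an offset of 64, 5001 to 11750 with -47 and 34251 to 36000 with -16168, through GEO's platform annotation, and other positions stayed unnamed. Where 1 gene had several probe sets, the highest mean was used. The filter asked for a log2 value above 3.47 (the median of the table) in 6 or more arrays and kept 5748 genes. All 48 arrays in 8 groups were fitted together with limma 3.58.1 in R 4.3.3 (lmFit, contrasts.fit, eBayes with trend), without covariates, and limma's moderated test, two-sided, was run for 11 comparisons, with p-values adjusted by Benjamini and Hochberg's method over the 5748 genes and called under 0.05. No batch is named and no mouse number is shared between groups, so mice were treated as independent. The p-values measure the spread between mice, and the number of arrays limits their precision. The fit was tested on simulated data with the same spread of a gene in all groups, which cannot test how unequal spreads affect the SEs and p-values.

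The genes, the lists of roles, signalling partners and cell type markers, and the rule for named genes (the largest changes among those that passed at 400 mg/kg, those that passed at lower doses or between routes, and small lists in full) were chosen with earlier results of these data known. Lists are described by counts and medians, with no test of a list. Alternatives were 2 other scalings, 2 other filters, the use of all probe sets of a gene, other name sets, array weights, a fit of the compared groups alone, and leaving out mice. Promoter sequences are RefSeq's on GRCm38.p6, and 52 of the 53 genes were found in RefSeq's gene table.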

Additional observations from a re-analysis of the deposited data

Results flagged for a closer look

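Of 176 sets of 6 mice (22 genes in 8 groups), 18 held 1 mouse far from the other 5, by Dixon's rule for the gap to the nearest mouse relative to the whole range. Chance gives about 1 in 20 such sets. At iv 400 mg/kg, mouse 45 kept Clec2h at 6.32 log2 intensity, against 3.28 to 3.99 in the other 5, and mouse 44 had the highest Cd151, 11.16, against 9.89 to 10.36. At iv 200 mg/kg, mouse 26 stood out with Cd320 at 8.56, mouse 29 with Cd84 at 2.93 and mouse 27 with Clec4d at 2.71, and of these Cd84 and Clec4d were at background. At iv 50 mg/kg, mouse 9 had the lowest Cd2bp2, 6.67. In iv saline, mouse 1 stood out with Cd2bp2 at 6.85, Cd8a at 4.4 and Cd99l2 at 6.37, and mouse 3 with Clec2h at 7.43. The arrays of mice 1 and 9 also stood apart over all genes.

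By ip, mouse 86 stood out at 200 mg/kg with Clec4a2 at 2.64 and Clec4n at 2.67, mouse 85 with Cd48 at 2.35 and mouse 87 with Cd74 at 9.74. At ip 50 mg/kg mouse 71 had Clec4a2 at 2.84. These values of Clec4a2, Clec4n and Cd48 were at background, as were those of the other mice in the same groups. In ip saline, mouse 61 had the highest Clec2h, 10.33, against 9.26 to 9.53 in the other 5, mouse 62 the highest Clec7a, 5.03, against 4.05 to 4.32, and mouse 65 the highest Clec11a, 4.69, against 3.8 to 4.03. The effect of 400 mg/kg differed between routes for Clec4a2 (ip minus iv, 1.79 on the log2 scale), Clec5a (1.35) and Cd84 (1.13), as given above.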

How the results depend on the processing

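Names rest on position, low genes are bounded by background, and route goes with array set. No paired analysis was possible because no mouse number is shared between groups. The 13 rises at 400 mg/kg passed by both routes under both other scalings, array weights and every single mouse left out. Leaving out single mice gave 4 to 8 rises at iv 200 mg/kg and 13 at 400 mg/kg of each route, with 2 falls by iv and 4 to 5 by ip. It gave 10 to 13 rises and 2 to 4 falls at iv 400 against iv 200 mg/kg, 13 and 4 to 5 at ip 400 against ip 200 mg/kg, and 6 to 7 and 2 between saline groups. Between routes it gave 2 to 5 larger and 0 to 1 smaller effects at 400 mg/kg (5 and 1 without mouse 103 or 107), and 0 to 3 smaller at 200 mg/kg (3 without mouse 26 or 28). It gave 0 at 50 mg/kg of each route and at ip 200 mg/kg. With only the compared groups fitted, 0 rises were called at iv 200 mg/kg and 4 falls between saline groups. With array weights there were 10 rises and 2 falls at iv 200 mg/kg, 7 smaller effects by ip at 200 mg/kg, and 5 larger and 1 smaller at 400 mg/kg. Quantile normalization gave 7 falls at ip 400 mg/kg, 1 higher gene between saline groups and 1 larger effect by ip at 400 mg/kg, and Cd2ap (-0.01), Cd59a (-0.03), Cd8a (-0.07) and Cd99l2 (-0.02) turned sign between saline groups. Without the filter all 53 genes were tested, with 13 falls at ip 400 mg/kg, 8 at ip 400 against ip 200 mg/kg and 5 between saline groups. A level of 6 left 15 genes, with 3 falls at ip 400 against ip 200 mg/kg, 0 between saline groups and 1 larger effect by ip at 400 mg/kg. Names from the longest stretch alone left 16 genes, with 1 fall at iv 400 mg/kg, 2 at ip 400 mg/kg, 1 at iv 400 against iv 200 mg/kg, 2 at ip 400 against ip 200 mg/kg, and 4 higher and 0 lower between saline groups. Leaving out 250 positions at each stretch end left 17 genes, without Clec7a, Clec4d, Cd48, Cd55 and Clec11a, and 1 lower between saline groups. Except for the 2 other scalings, the share of all genes called was not counted in these alternatives. Their counts are therefore a description of the genes treated here. The causes were not tested beyond the genes and samples that each alternative removes.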
